A study of Mus musculus with 3 samples.

Results

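The adrenergic receptors and the cyclic AMP (cAMP) machinery of mouse interscapular brown adipose tissue (BAT) were followed through 9 genes: the receptors Adrb3, Adrb1, Adra1a and Adra1b, the protein kinase A (PKA) subunits Prkaca and Prkar2b, and the phosphodiesterases Pde3b, Pde3a and Pde4d. They were chosen by name, with earlier results of these data known, out of 25154 genes listed in at least 1 of the 3 libraries of single nuclei, and all 9 were listed in each library. Of the 9, 8 had a mean of at least 20 CPM in brown adipocyte-like nuclei, and Adra1b, at 3.92 CPM, did not. CPM is the number of unique molecular identifiers (UMIs) of a gene in a class of nuclei, scaled to 1000000 UMIs of that class.

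Noradrenaline from sympathetic nerves reaches brown adipocytes (BAs) through beta-adrenergic receptors, which act through the stimulatory G protein and adenylyl cyclase to raise cAMP. cAMP frees the catalytic subunit of PKA from its regulatory subunits, PKA then drives lipolysis and, through CREB and its partners, thermogenic transcription, and phosphodiesterases end the signal by breaking cAMP down. Receptors of the alpha1 type act through the G protein Gq, phospholipase C and calcium instead. Cutting the nerve lowers the supply of this ligand, so the question put to the data was what the RNA of this machinery looked like after denervation.

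Each condition had 1 library of nuclei from the floating layer of digested BAT, which holds BAs together with pieces of vessels. All 3 libraries carry the labels WT, C57Bl6 and adult, and they differ in treatment: none in the untreated library, a sham operation in the sham library, and denervation in the denervated library. The header of the denervated table gives a run name that begins with nKO and that of the untreated table one that begins with nC, neither is explained in the sources used here, and the labels were followed. By the study's methods the mice were males aged 8 weeks, the untreated and the denervated BAT came from 20 pooled mice each, and the denervated BAT was taken on day 3 after the nerves of the left lobe were cut, in mice that also received tamoxifen. The time after the operation, the number of mice and any tamoxifen were not given for the sham library in the sources used here. Pooled animals in 1 library have no replicate spread, so no test was made, no p-value is given, and every interval below is an exact 95% interval for counting error only. Nerve supply, operation, tamoxifen, preparation and sequencing run cannot be told apart between the libraries.

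After filtering, 10710 untreated, 12137 sham and 9782 denervated nuclei were kept, with a median of 976.5, 751 and 689 UMIs per nucleus. Classes were named from marker genes by clusters that were made without the 9 genes and without any other gene of their pathway. Brown adipocyte (BA)-like nuclei numbered 4601, 3501 and 5072 in the untreated, sham and denervated libraries, white adipocyte (WA)-like nuclei 133, 87 and 843, endothelial cell (EC)-like nuclei 5136, 5526 and 2653, and pericyte (PC)-like nuclei 577, 1524 and 827. Smooth muscle-like nuclei were named in the untreated and the sham library, 73 and 370 of them. All 10 BA markers had UMIs in the BA-like nuclei of every library, with a summed level of 15290, 12407 and 17497 CPM. The same nuclei held low sums of EC markers (336, 366 and 254 CPM) and PC markers (79.5, 137 and 58.3), and WA markers at 346, 288 and 560 CPM. The sham library stood apart from the other 2: mitochondrial genes took 12.9% of its UMIs, against 6.71% and 2.95% in the untreated and the denervated library, and 832 of its nuclei formed an adipocyte cluster that stayed unnamed because its WA score, 3.60, was close to its BA score, 3.14. The WA-like nuclei of the denervated library were led by Cxcl1, Ptx3, Irf1 and Mt2, which are inflammation and stress genes, beside the WA gene Slc7a10. Pairs of libraries shared 251 to 278 barcodes, none with an equal number of UMIs.

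CREB binds the cAMP response element, so the stretches before the starts of those of the 9 genes with a sequence were searched for its letters. In the RefSeq promoter windows of GRCm38.p6, 5 of the 9 genes had an entry, with 8 starts between them. The full element TGACGTCA, which reads the same on both strands, was in none of the 8 stretches of 250 bases before a start, and it was in 1.55% of all 32851 such stretches. Its 5-letter part TGACG, searched on both strands and contained in the full element, was before Adrb1 and Prkaca, and in 17.8% of all stretches. These 2 sequences are shown because they are the ones with a match among the 5 genes searched. Each is written from the base farthest from the start to the base next to it, with TGACG or its reverse complement CGTCA in capitals.
Adrb1, plus strand, chr19:56721867-56722116: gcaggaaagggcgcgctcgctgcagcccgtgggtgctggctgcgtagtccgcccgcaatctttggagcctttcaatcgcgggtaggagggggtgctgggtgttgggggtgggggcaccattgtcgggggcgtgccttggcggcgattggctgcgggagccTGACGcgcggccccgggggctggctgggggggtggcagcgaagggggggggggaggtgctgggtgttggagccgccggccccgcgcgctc
Prkaca, plus strand, chr8:83972728-83972977: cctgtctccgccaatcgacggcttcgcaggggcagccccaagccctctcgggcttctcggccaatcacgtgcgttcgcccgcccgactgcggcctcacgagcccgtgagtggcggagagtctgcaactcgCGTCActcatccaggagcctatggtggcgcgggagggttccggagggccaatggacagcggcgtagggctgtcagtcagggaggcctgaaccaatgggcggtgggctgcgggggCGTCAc
The match before Adrb1 began 90 bases before the start and the farther of the 2 before Prkaca 120 bases before it. A match of letters is a description and does not show that a factor binds there.

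Adrb3, the beta receptor best known from adipocytes (GRCm38 chromosome 8, 27225776 to 27250616, minus strand), was highest in adipocytes in all 3 libraries. In BA-like nuclei it had 585 CPM (569 to 602) in the untreated library, 1773 (1736 to 1810) in the sham library and 619 (598 to 641) in the denervated library. In WA-like nuclei its level was 1529, 4200 and 963 CPM. WA-like nuclei were thus first and BA-like nuclei second in every library, and each step was larger than its counting interval. EC-like nuclei held 43.5, 66.8 and 223 CPM and PC-like nuclei 44.2, 73.1 and 141. The EC-like and PC-like values did not differ beyond counting error in the untreated and the sham library. Smooth muscle-like nuclei held 235 CPM (144 to 364) untreated, from 20 UMIs, and 126 sham, which was 40.2% and 7.10% of the BA-like level beside 32.6% and 20.7% for the BA markers. Most PC-like Adrb3 UMIs of the sham and the denervated library came from 1 small cluster each, of 26 and 64 nuclei, in which the BA markers scored second after the PC markers. The denervated one held 39 of 57 UMIs, at 536 CPM (381 to 733). Without these clusters, a choice made after seeing the data, PC-like nuclei held 31.3 CPM of Adrb3 in the sham library from 37 of 89 UMIs and 54.4 in the denervated library from 18, a log2 ratio of 0.80 (-0.10 to 1.65).

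The high Adrb3 values in denervated EC-like nuclei came together with RNA of other adipocyte genes. The summed level of the 10 BA markers in EC-like nuclei was 11% of its BA-like level in the untreated and the sham library and 30.3% in the denervated library. For Adrb3 the same share was 7.43%, 3.77% and 36.0%, for Adra1a 4.27%, 1.85% and 24.8%, for Prkar2b 7.46%, 5.43% and 28.8%, and for Pde3b 6.79%, 5.75% and 31.7%. Pde3a was at 5.51%, 21.7% and 27.4%, Pde4d at 8.42%, 16.1% and 32.6%, Adrb1 at 5.55%, 8.59% and 21.2% and Prkaca at 36.0%, 20% and 45.9%. These 8 genes thus stood highest in the denervated library, as the marker list did, while between the untreated and the sham library, where the list was level, their shares differed in both directions. Adra1b had only 3 to 6 UMIs in EC-like nuclei. The part of adipocyte RNA in the EC-like values was not tested. In PC-like nuclei the BA markers were at 20.6%, 22.8% and 32.0% of their BA-like level.

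**Figure D1:**
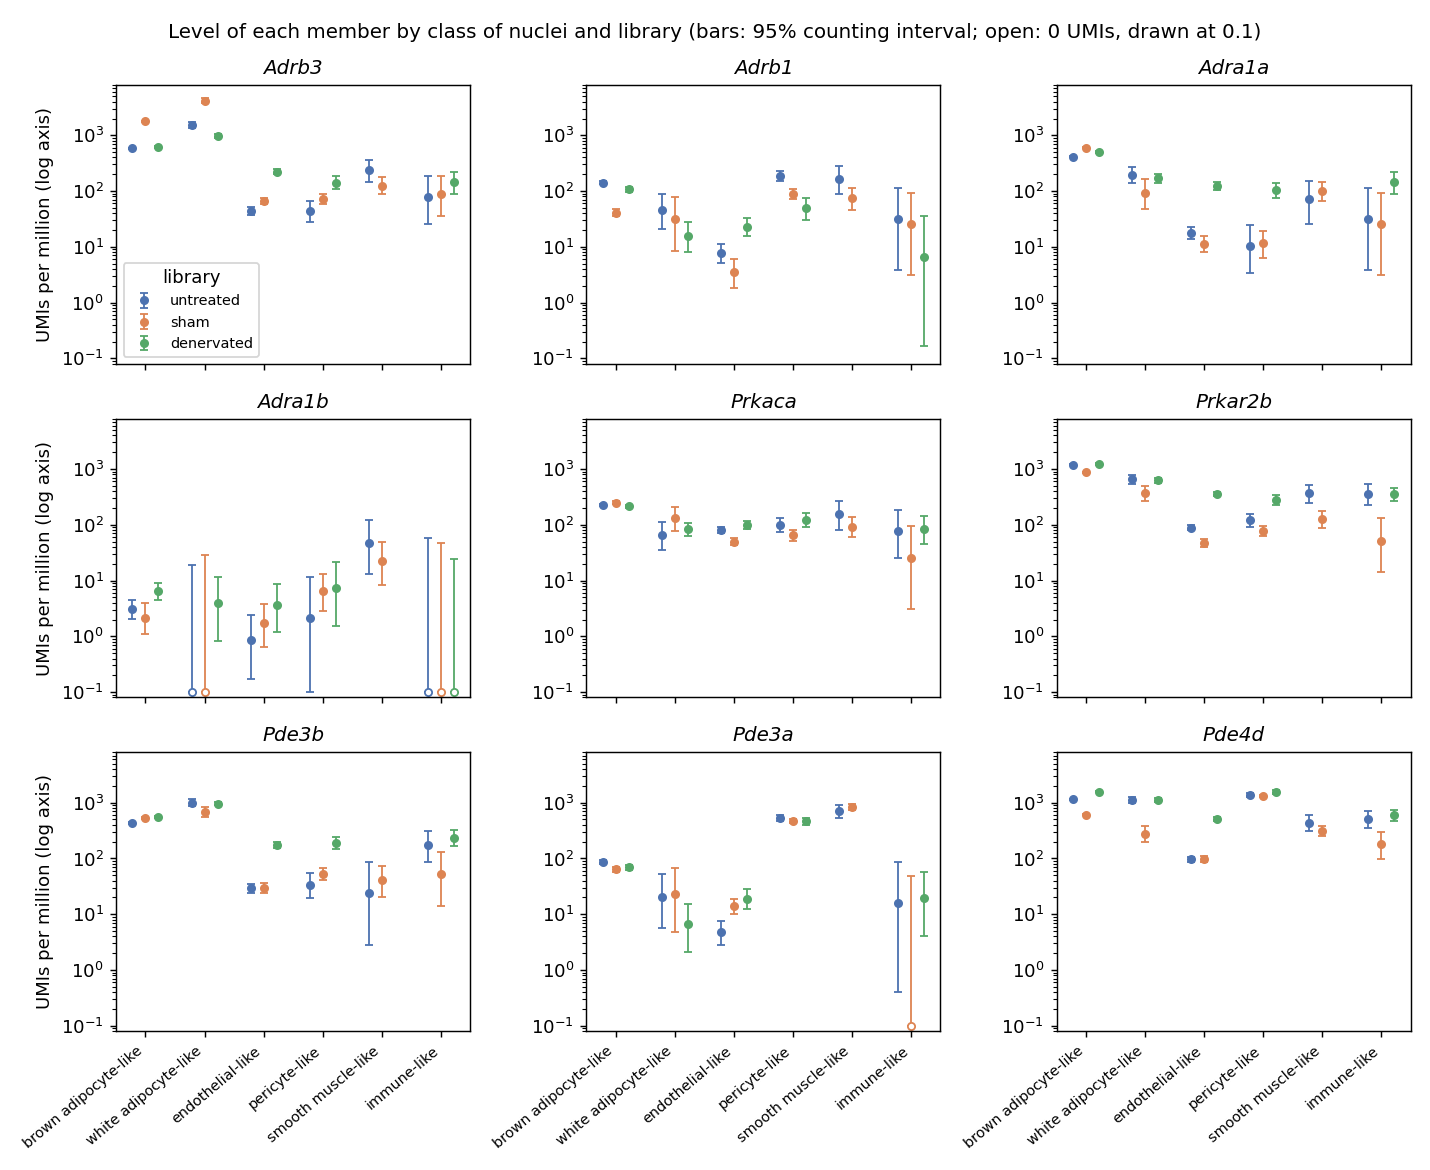
Level of each gene in CPM (log axis) in 6 classes of nuclei with at least 50 nuclei, in the untreated (blue), sham (orange) and denervated (green) library; bars are exact 95% Poisson intervals and open points mark 0 UMIs, drawn at 0.1. Adrb3, Prkar2b and Pde3b are highest in the adipocyte classes, Adra1a in the brown adipocyte-like class and Pde3a in the pericyte-like and smooth muscle-like classes. Adra1b is below 10 CPM outside smooth muscle-like nuclei.

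Adrb1, the beta receptor of the heart that vessels and adipocytes also use (chromosome 19, 56722199 to 56733113, plus strand), was shared between mural cells and adipocytes. PC-like nuclei held 189 CPM (152 to 233) in the untreated library, 89.5 (73.5 to 108) in the sham library and 49.5 (30.3 to 76.5) in the denervated library. BA-like nuclei held 141 (133 to 150), 41.2 (35.8 to 47.1) and 107 (98.2 to 116). PC-like nuclei were thus above BA-like nuclei in the untreated and the sham library and below them in the denervated library. Smooth muscle-like nuclei, at 165 and 74.0 CPM, did not differ from PC-like nuclei beyond counting error. EC-like nuclei were low, at 7.85, 3.53 and 22.7 CPM, and WA-like nuclei held 46.2, 31.1 and 15.8 from 4 to 12 UMIs.

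The low PC-like Adrb1 level of the denervated library rested on few UMIs and differed between its clusters. The value in the denervated library came from 20 UMIs, against 90 and 109 in the untreated and the sham library. Its largest PC-like cluster, of 675 nuclei, held 25.3 CPM (10.2 to 52.2), and a cluster of 88 nuclei with Acta2 and Myh11 among its leading genes held 128 (51.3 to 263). The largest PC-like cluster of the untreated and of the sham library held 189 and 107 CPM. Median depth in PC-like nuclei was 753, 749 and 397 UMIs, and the summed PC markers were 12859, 12919 and 6786 CPM.

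The alpha1 receptors differed widely in level. Adra1a (chromosome 14, 66635251 to 66771168, plus strand) was highest in BA-like nuclei, with 414 CPM (400 to 428) untreated, 604 (583 to 626) sham and 501 (482 to 521) denervated. WA-like nuclei held 195, 93.3 and 168 CPM, below BA-like nuclei in every library. Untreated and sham PC-like nuclei held 10.5 and 11.5, whereas smooth muscle-like nuclei held 70.6 and 99.9, a log2 ratio of 2.75 (0.77 to 4.80) and 3.12 (2.14 to 4.16) over PC-like nuclei. These smooth muscle-like levels were 17.1% and 16.5% of the BA-like ones, below the 32.6% and 20.7% of the BA markers. The BA markers summed to 4980 CPM in untreated smooth muscle-like against 3155 in PC-like nuclei, and to 2565 against 2823 in the sham library, and the part of that RNA in the Adra1a values was not tested. Adra1b (chromosome 11, 43774606 to 43901210, minus strand) was near the limit of detection. BA-like nuclei held 26, 11 and 33 UMIs of it in the 3 libraries, which is 3.10, 2.17 and 6.48 CPM. Of the 6 classes with at least 50 nuclei that are plotted, smooth muscle-like nuclei alone were above 10 CPM, at 47.1 CPM from 4 UMIs in the untreated and 22.2 from 6 UMIs in the sham library.

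Prkaca, the catalytic subunit of PKA (chromosome 8, 83972993 to 83996443, plus strand), had its highest level in BA-like nuclei but was also found outside adipocytes. BA-like nuclei held 225 CPM (215 to 236) untreated, 250 (237 to 264) sham and 216 (203 to 229) denervated. EC-like nuclei held 81.1, 50.1 and 99.0 CPM, which was 36.0%, 20% and 45.9% of the BA-like level and above the share of the BA markers in each library. WA-like nuclei held 66.7, 132 and 82.8 CPM. Smooth muscle-like nuclei held 153 untreated and 92.5 sham, and the untreated value did not differ from the BA-like one beyond counting error, at a log2 ratio of 0.56 (-0.22 to 1.47) for BA-like over smooth muscle-like nuclei. Prkar2b, the regulatory subunit that prevails in adipose tissue (chromosome 12, 31958476 to 32061296, minus strand), followed the order BA-like, WA-like, then all other classes. Its BA-like level was 1192 CPM (1169 to 1215) untreated, 873 (847 to 899) sham and 1226 (1196 to 1257) denervated. Its WA-like level was 652, 366 and 624 CPM.

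The 3 phosphodiesterases marked 3 different sets of cells. Pde3b, the cAMP-degrading enzyme through which insulin restrains lipolysis (chromosome 7, 114415281 to 114539251, plus strand), had 430 CPM (416 to 444) untreated, 523 (503 to 543) sham and 557 (537 to 578) denervated in BA-like nuclei. In WA-like nuclei it had 1006, 692 and 964, the highest level of any class in each library. Untreated and sham PC-like nuclei, by contrast, held 33.7 and 53.4 CPM. Pde3a, its relative of cardiac and smooth muscle (chromosome 6, 141249269 to 141507448, plus strand), had 86.5, 63.8 and 69.7 CPM in BA-like nuclei but 526 (463 to 596), 472 (434 to 512) and 471 (406 to 542) in PC-like nuclei. Smooth muscle-like nuclei held 706 and 844 CPM, above PC-like nuclei beyond counting error in the sham library, where the log2 ratio was 0.84 (0.61 to 1.06). Pde4d, a cAMP-specific enzyme from one of the longest genes of the genome (chromosome 13, 108449948 to 109953461, plus strand), was highest in PC-like nuclei among the 6 plotted classes in the untreated and the sham library, while the denervated PC-like and BA-like levels lay close together. PC-like nuclei held 1378, 1316 and 1543 CPM, and BA-like nuclei 1149 (1126 to 1172), 611 (589 to 633) and 1574 (1540 to 1609). WA-like nuclei held 1129, 280 and 1117 CPM, and smooth muscle-like nuclei 436 untreated and 315 sham.

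WA-like and BA-like nuclei of the same library differed beyond counting error, and in 1 direction, in all 3 libraries for 5 of the 9 genes, 2 higher and 3 lower in WA-like nuclei. Of all 7296 genes that passed the filter, which leave out Adra1b, 3.47% were higher and 6.72% lower by the same rule. Genes with few UMIs have wide intervals and meet this rule less easily. The shares were not matched for level, so they are no like measure for the 9 genes. Adrb3 was higher in WA-like nuclei, with a log2 ratio over BA-like nuclei of 1.39 (1.21 to 1.56) untreated, 1.24 (1.12 to 1.37) sham and 0.64 (0.52 to 0.75) denervated. Pde3b was higher as well, at 1.23, 0.41 and 0.79. Adra1a was lower, at -1.09, -2.69 and -1.57, Prkaca at -1.76, -0.92 and -1.38, and Prkar2b at -0.87, -1.26 and -0.97, each with an interval below 0. Pde3a was lower at -2.08, -1.45 and -3.41, from only 3 to 5 UMIs in WA-like nuclei, and its sham interval (-3.74 to 0.11) held 0. Adrb1 was lower at -1.61, -0.40 and -2.76, and its sham interval (-2.29 to 0.97) held 0 too. Pde4d was lower in the sham and the denervated library, at -1.13 and -0.50, but not beyond counting error in the untreated library, at -0.03 (-0.23 to 0.17). BA markers in WA-like nuclei were at 94.3%, 108% and 50.1% of their BA-like level. WA markers in WA-like nuclei summed to 2314, 7995 and 2114 CPM, against 346, 288 and 560 in BA-like nuclei, and the part of these differing marker levels in the ratios was not tested.

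**Figure D2:**
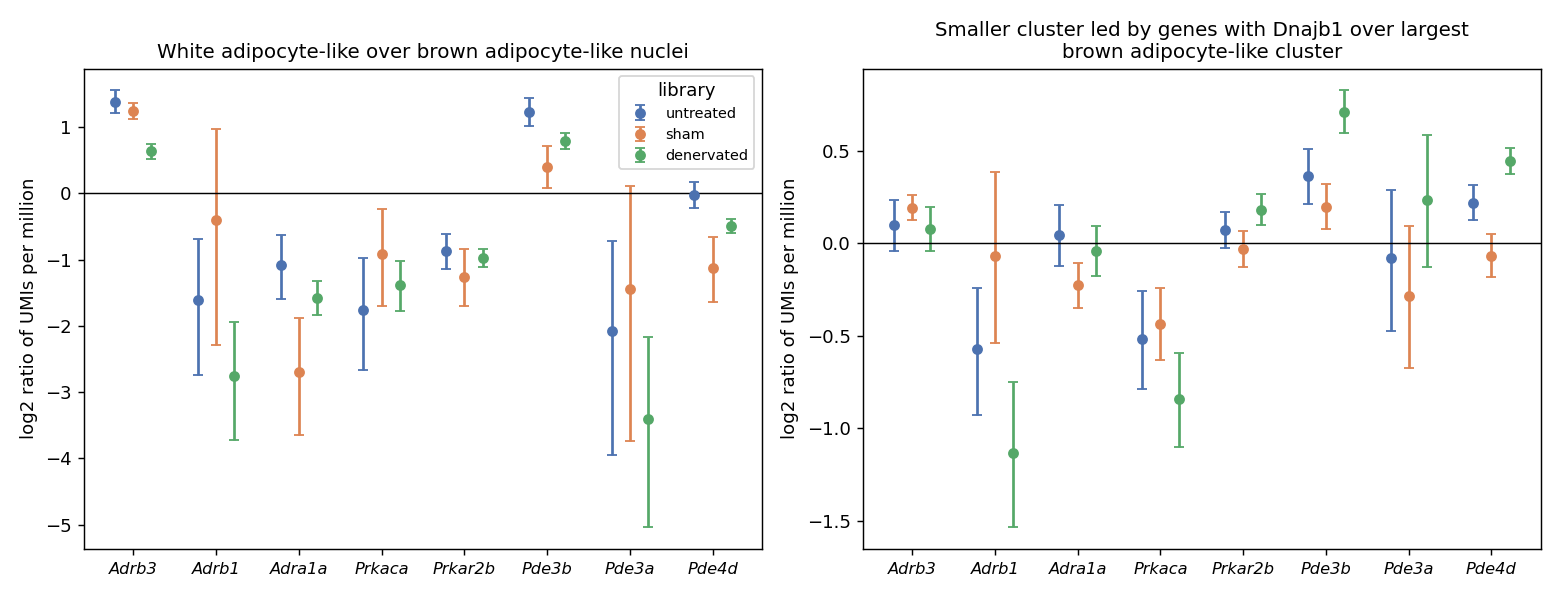
Log2 ratios of CPM within each library, with exact 95% counting intervals; Adra1b is left out for its few UMIs. Left, WA-like over BA-like nuclei, with Adrb3 and Pde3b above 0 and Adra1a, Prkaca and Prkar2b below 0 in all 3 libraries; right, the smaller BA-like cluster with Dnajb1 among its leading genes over the largest BA-like cluster, with Prkaca below 0 and Pde3b above 0 in all 3.

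BA-like nuclei were themselves of 2 main kinds in every library, a largest cluster and a smaller one with the heat shock gene Dnajb1 among its leading genes. Hspa1a and Hspa1b were among them as well in the untreated and the denervated library, and Pdk4, Jun and Atf3 in the untreated and the sham library. In the sham library the smaller cluster came from a second round of clustering, within an unnamed cluster of 1933 nuclei, and in the others from the first. The smaller cluster held 636 untreated, 962 sham and 1589 denervated nuclei. Prkaca was lower in it, at 163 against 233 CPM untreated, 199 against 269 sham and 133 against 239 denervated. The log2 ratios were -0.52 (-0.79 to -0.26), -0.43 (-0.63 to -0.24) and -0.84 (-1.10 to -0.60). Pde3b was higher in it, by 0.36 (0.21 to 0.51), 0.20 (0.08 to 0.32) and 0.71 (0.60 to 0.83). Pde3b was also a gene of WA-like nuclei, and the summed WA markers stood at 414 against 339 CPM in the untreated and 524 against 194 in the sham library, but at 546 against 561, a log2 ratio of -0.04 (-0.17 to 0.09), in the denervated library. The mean log2 WA marker score of the smaller cluster was above that of the largest one in all 3 libraries. It was 2.15 against 0.998 sham and 1.16 against 0.87 denervated. In the untreated library it was 1.75 against at most 1.27, the score of the second list of the largest cluster. The part of WA markers in the Pde3b values was not tested. Adrb1 was lower in the untreated library, at -0.57, and in the denervated library, at -1.13 (-1.54 to -0.75), while the sham value of -0.07 (-0.54 to 0.38) was within counting error. Adrb3 stayed close, at 0.10, 0.19 and 0.08. Ucp1, the uncoupling protein of thermogenesis, was at 269 against 355 CPM in the untreated, 409 against 403 in the sham and 129 against 359 in the denervated library. Its log2 ratios were -0.40 (-0.61 to -0.20), 0.02 (-0.12 to 0.16) and -1.48 (-1.73 to -1.23). Pde4d was at 0.22, -0.07 and 0.45.

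Between libraries, the BA-like ratios past 2-fold among the 8 genes that passed the filter all had the sham library on one side. Against sham, 2 of these 8 genes were at least 2-fold higher in the denervated library, Adrb1 and Pde4d, and 1 was at least 2-fold lower, Adrb3. Of all 7296 genes that passed, 7.07% were at least 2-fold higher and 6.81% at least 2-fold lower. Against untreated, none of the 8 was past 2-fold in the denervated library, where 1.03% of all genes were higher and 0.384% lower. The sham library differed 2-fold from the untreated library in Adrb3, which was higher, and Adrb1, which was lower, with 6.5% of all genes higher and 6.47% lower. Denervated and sham, untreated and sham, and denervated and untreated share libraries pairwise, so these 3 comparisons are not independent.

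Adrb3 in BA-like nuclei was 1773 CPM in the sham library and close to 600 CPM in both others. The log2 ratio was -1.52 (-1.58 to -1.46) for denervated over sham, 0.08 (0.02 to 0.15) for denervated over untreated and 1.60 (1.55 to 1.65) for sham over untreated. Adrb1 went the other way, with 41.2 CPM in the sham library, and its log2 ratios were 1.38 (1.15 to 1.62), -0.40 (-0.55 to -0.25) and -1.78 (-1.99996 to -1.57). The sham library was therefore the extreme for both beta receptors, at opposite ends. Adra1a was also highest in the sham library, with -0.27 (-0.35 to -0.19), 0.27 (0.20 to 0.35) and 0.54 (0.47 to 0.61). Adra1b, from 33 against 11 and 26 UMIs, had ratios of 1.58 (0.56 to 2.71) and 1.06 (0.28 to 1.86) for denervated over sham and over untreated.

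Neither PKA subunit was past 2-fold between libraries, where at most 7.07% of all genes were past 2-fold in 1 direction. Prkaca had a log2 ratio of -0.21 (-0.33 to -0.10) for denervated over sham and -0.06 (-0.17 to 0.05) for denervated over untreated. Prkar2b had 0.49 (0.43 to 0.55) over sham and 0.04 (-0.00 to 0.09) over untreated. For both, the interval of denervated over untreated held 0.

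Of the phosphodiesterases, Pde4d and Pde3b were highest in the denervated library, with intervals above 0 against both others. The Pde4d log2 ratio was 1.37 (1.31 to 1.43) over sham and 0.45 (0.41 to 0.50) over untreated, and that of sham over untreated was -0.91 (-0.97 to -0.85). Pde3b was 0.09 (0.02 to 0.17) over sham and 0.38 (0.30 to 0.45) over untreated. Pde3a was 0.13 (-0.09 to 0.35) over sham and -0.31 (-0.50 to -0.13) over untreated. In the largest BA-like cluster alone, the Pde3b ratio over sham was -0.05, so its direction against sham was not settled.

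**Figure D3:**
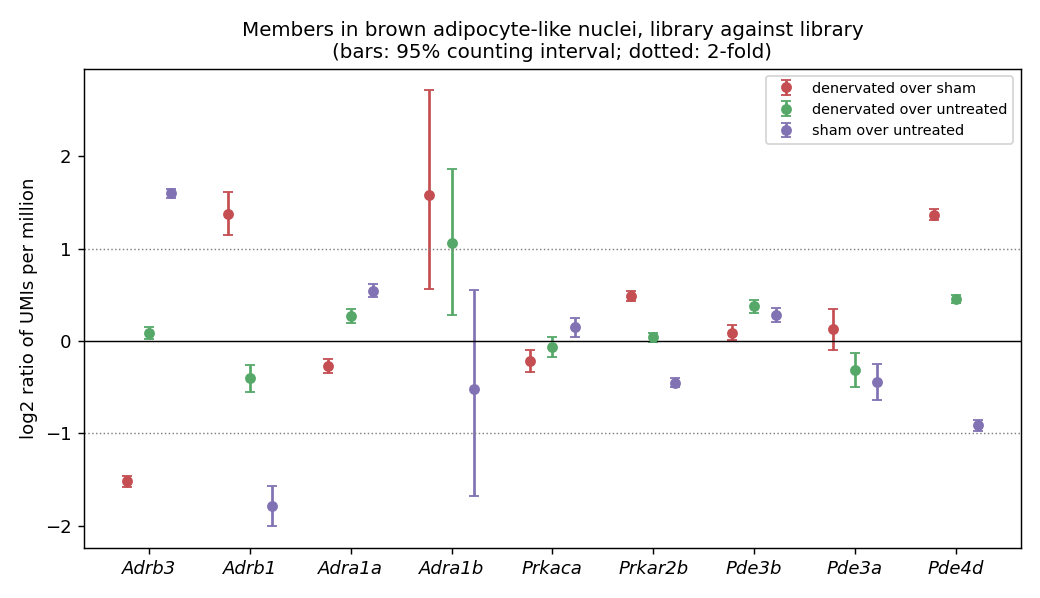
Log2 ratio of CPM in BA-like nuclei for the 9 genes, denervated over sham (red), denervated over untreated (green) and sham over untreated (purple), with exact 95% counting intervals; dotted lines mark 2-fold. Adrb3 and Adrb1 lie far from 0 only where the sham library takes part, and no gene that passed the filter is past 2-fold for denervated over untreated.

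The ratio against sham went with the span of a gene on the genome. Over all genes, the median log2 ratio for denervated over sham was -0.15 for genes under 20 kb, -0.02 from 20 to 100 kb, 0.31 from 100 to 300 kb and 0.69 above 300 kb, while the median of all 7296 genes was 0.01. Pde4d spans 1503514 bases, and in its bin 27.1% of 306 genes were at least 2-fold higher. Adrb1 spans 10915 bases and Adrb3 24841 bases, and they lay at 1.38 and -1.52 where the medians of their bins were -0.15 and -0.02. For denervated over untreated the bins ran from -0.08 to 0.29, and Pde4d at 0.45 lay above its bin. The part of gene span in the Pde4d values was not tested.

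**Figure D4:**
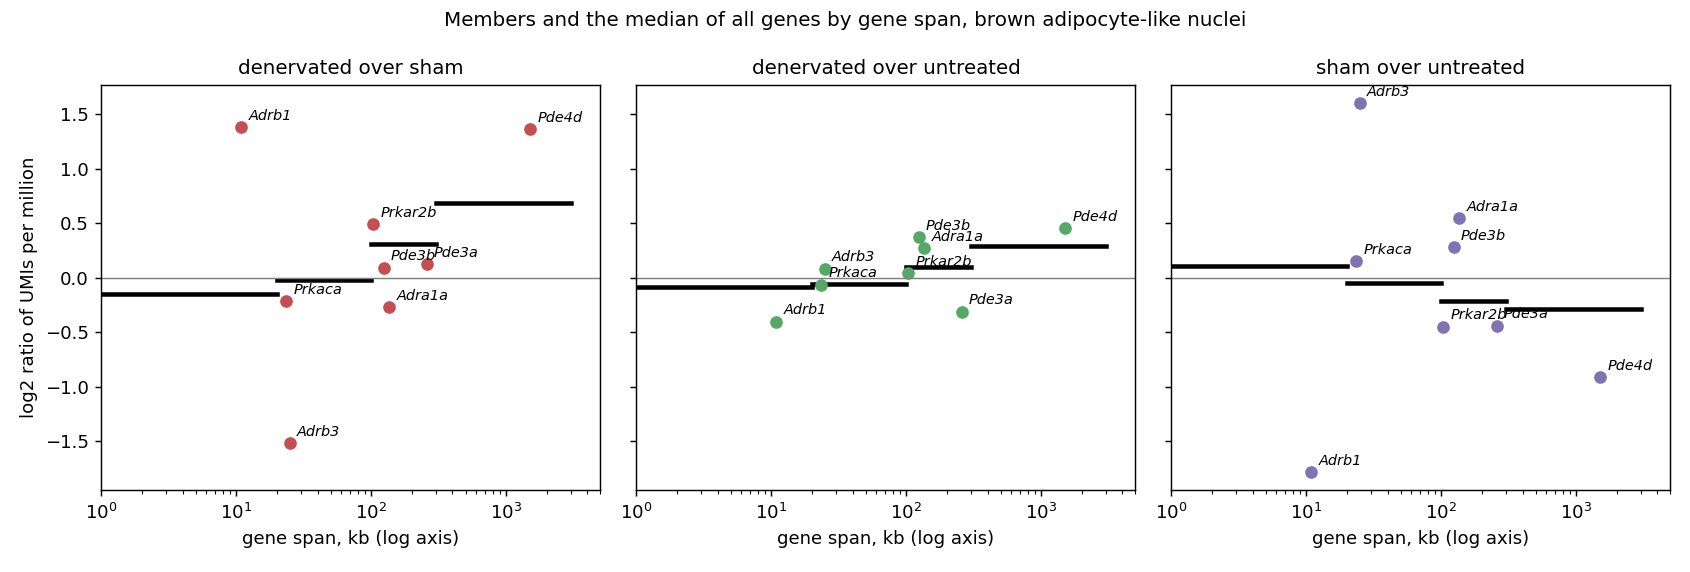
Log2 ratio of CPM in BA-like nuclei (vertical) against the span of the gene in kb (log axis) for the 8 genes that passed the filter; black lines are the medians of all genes in 4 bins of span, the lowest drawn from the left edge of the plot and the highest ending short of the right edge. The bin medians climb from -0.15 to 0.69 for denervated over sham and fall from 0.10 to -0.29 for sham over untreated, and Adrb1 and Adrb3 lie far from the line of their bins in both.

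The share of nuclei with an Adrb3 UMI was highest in the sham library too, and the comparison of the other 2 libraries depended on depth. At all UMIs, 54.0% of untreated, 76.7% of sham and 38.3% of denervated BA-like nuclei had an Adrb3 UMI, but their median depth was 1818, 1425 and 889 UMIs. With each nucleus thinned to 500 UMIs, which left out 141, 184 and 542 BA-like nuclei, the shares were 24.8% (23.6 to 26.1), 49.7% (48.0 to 51.4) and 24.2% (22.9 to 25.5). The gap between the untreated and the denervated library was thus wide at full depth, and at matched depth the intervals overlapped. EC-like nuclei, which serve as the background, had 2.86%, 3.18% and 7.31% at all UMIs and 1.99%, 2.77% and 10.98% after thinning, with a median depth of 661, 512 and 395 UMIs and 1726, 2636 and 1733 nuclei left out. For Adrb1 the thinned BA-like shares were 6.39%, 2.11% and 4.90% (20.3%, 5.08% and 9.15% unthinned), with 0.32%, 0.21% and 1.96% of EC-like nuclei. For Pde4d they were 40.7%, 23.8% and 49.9% (75.2%, 47.8% and 68.9% unthinned), with 4.05%, 4.78% and 22.4% of EC-like nuclei. Adra1b was in 0.09%, 0.15% and 0.24% of thinned BA-like nuclei, close to the EC-like shares of 0.06%, 0.14% and 0.22%. Its untreated CPM was nevertheless higher in BA-like than in EC-like nuclei, with a log2 ratio of 1.88 (0.17 to 4.25) from 26 and 3 UMIs, while the sham and the denervated interval held 0.

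In WA-like nuclei Adrb3 in the denervated library had a log2 ratio of -2.12 (-2.29 to -1.96) over sham and -0.67 (-0.86 to -0.47) over untreated. Pde4d was 1.996 (1.51 to 2.52) over sham and -0.02 (-0.23 to 0.20) over untreated. Against sham both genes thus had the same direction in WA-like as in BA-like nuclei. Adrb1 at -0.98 (-2.70 to 1.11) and Adra1a at 0.85 (-0.00 to 1.84) lay on the other side of 0 from their BA-like ratios against sham, and both intervals held 0. Prkar2b was 0.77 (0.34 to 1.24) over sham and -0.06 (-0.35 to 0.23) over untreated. These ratios rested on only 87 WA-like sham nuclei. With the unnamed sham cluster of 832 nuclei in their place, a choice made after seeing the data, the ratio was 1.21 (1.04 to 1.38) for Pde4d, from a sham level of 482 CPM, and -1.71 (-1.83 to -1.59) for Adrb3. Prkar2b then stood at -0.13 (-0.31 to 0.04), so its WA-like difference from sham was not settled. Adra1a then stood at -0.30 (-0.64 to 0.03), on the same side of 0 as in BA-like nuclei, and Adrb1 stayed on the other side, at -0.71 (-1.85 to 0.36).

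In PC-like nuclei, where Pde3a and Pde4d were high, neither came near 2-fold between libraries. Pde3a had a log2 ratio of -0.00 (-0.25 to 0.23) for denervated over sham and -0.16 (-0.44 to 0.12) for denervated over untreated. Pde4d had 0.23 (0.09 to 0.36) and 0.16 (0.00 to 0.32). The wide Pde4d difference of BA-like nuclei between denervated and sham was therefore not seen at that size in PC-like nuclei. There the interval ended at 0.36. PC-like nuclei were not typical of the other classes outside adipocytes. The Pde4d ratio over sham was 2.39 in EC-like nuclei and 1.71 in immune-like nuclei, the latter from 91 against 14 UMIs. The part of adipocyte RNA in these values was not tested. Adrb1 in PC-like nuclei was -0.85 (-1.62 to -0.16) over sham and -1.94 (-2.71 to -1.22) over untreated. Adra1a had 3.18 (2.28 to 4.17) over sham, from 42 against 14 UMIs, and 26 of the 42 lay in the cluster of 64 nuclei in which BA markers scored second. That cluster held 358 CPM, against 43.4 in the largest PC-like cluster of 675 nuclei. Without it and the sham cluster of 26 nuclei, the ratio was 2.84 (1.53 to 4.27) from 16 against 8 UMIs. That of Adrb1 was then -1.11 (-2.03 to -0.30), and those of Pde3a and Pde4d 0.12 and 0.16.

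The other genes of the pathway were taken from 10 lists, with 82 genes in the files, of which 56 passed the filter in BA-like nuclei. For denervated over sham, 4 of the 56 were at least 2-fold higher and 5 at least 2-fold lower, beside 7.07% and 6.81% of all 7296 genes, with a median log2 ratio of 0.09 beside 0.01. These counts were near the background. For denervated over untreated, 0 of the 56 were past 2-fold in either direction, where 1.03% of all genes were higher and 0.384% lower. The median was 0.05 beside -0.03 over all genes. For sham over untreated, 7 were at least 2-fold higher and 2 lower, beside 6.5% and 6.47% of all genes. Since 0 of the 56 were past 2-fold against untreated, none could be past 2-fold against both sham and untreated, and that joint count adds nothing.

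All 6 G protein alpha subunits passed and none was past 2-fold in any of the 3 comparisons. At most 7.07% of all genes were past 2-fold in 1 direction in any comparison, so none of 6 is near that share. Gnas, the stimulatory subunit, held 1646, 2420 and 1606 CPM, and Gnaq, the subunit of the alpha1 receptors, 195, 133 and 189. Of the 9 adenylyl cyclases 3 passed, Adcy3, Adcy6 and Adcy9, and Adcy9 stood highest in the sham library, at -0.99 (-1.14 to -0.85) for denervated over sham, 0.40 (0.24 to 0.56) for denervated over untreated and, past 2-fold, 1.39 for sham over untreated.

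Of the 12 other PKA subunits, inhibitors and anchors 8 passed, and none was past 2-fold in any of the 3 comparisons. That is near the background, with at most 7.07% of all genes past 2-fold in 1 direction. Their median for denervated over sham was 0.39 beside 0.01 over all genes, and Akap1, a mitochondrial anchor with the most UMIs of the list, was at -0.33 (-0.39 to -0.28). Against untreated the median was 0.07 beside -0.03 over all genes. Prkar1a, a regulatory subunit, held 130, 79.6 and 122 CPM. Both Epac exchange factors, Rapgef3 and Rapgef4, which sense cAMP apart from PKA, were under the filter in BA-like nuclei. They were at 312 and 158 CPM in untreated EC-like nuclei.

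Of the 12 other cAMP phosphodiesterases in the files 6 passed, and none was past 2-fold in any of the 3 comparisons. That is near the background, with at most 7.07% of all genes past 2-fold in 1 direction. Their median log2 ratio was 0.00 for denervated over sham and 0.10 over untreated. Pde7b held 297, 381 and 267 CPM and Pde4a, of the same family as Pde4d, 189, 292 and 192. Pde4a thus stood highest in the sham library, where Pde4d was lowest. Of the 7 genes of receptor desensitization 6 passed. For denervated over sham 1 of them was at least 2-fold higher and 0 lower, beside 7.07% and 6.81% of all genes. It was Grk5, a receptor kinase, at 1.27 (1.13 to 1.40) against sham and 0.35 (0.25 to 0.45) against untreated. The lowest log2 ratio over sham in this list was -0.72. Grk3, another receptor kinase, held 676, 586 and 650 CPM.

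Of the alpha1 receptor arm all 7 genes passed, and for denervated over sham 3 were at least 2-fold higher (Itpr1, Plcb4 and Prkce) and 0 lower, beside 7.07% and 6.81% of all genes, with a median of 0.68. All but 1 of the 7 span over 300 kb, where the median of all genes was 0.69 and 27.1% were 2-fold higher, and the part of gene span in these values was not tested. Itpr1, the calcium release channel of the endoplasmic reticulum, held 736 untreated, 309 sham and 794 denervated, in CPM. Against untreated none was past 2-fold, where 1.03% of all genes were higher and 0.384% lower, and the median was 0.11. The sham library thus stood lowest for Itpr1, Plcb4 and Prkce and highest for Adra1a.

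CREB factors and cAMP-induced genes went both ways. Of 17 genes 14 passed, and against sham 0 were 2-fold higher and 3 were 2-fold lower, beside 7.07% and 6.81% of all genes: Crtc2, a CREB coactivator, Irf4, a transcription factor of thermogenesis, and Gadd45g, a stress-response gene, named here after their values were seen. Their log2 ratios against sham were -1.37, -1.80 and -1.99, and against untreated 0.20, 0.04 and -0.61. For sham over untreated these 3 and Nr4a1, a nuclear receptor gene induced by cAMP and also named after its values were seen, were at least 2-fold higher and 0 of the 14 lower, beside 6.5% and 6.47% of all genes. Sik2, a kinase that PKA inhibits, held 1765, 1248 and 2198 CPM, Ucp1 347, 404 and 307, and Ppargc1a, a coactivator of thermogenesis, 286, 188 and 291. Crtc3, another coactivator, held 114, 121 and 94.1. None of these 4 was past 2-fold in any comparison.

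All 5 lipolysis effectors passed the filter, with a median of -0.49 for denervated over sham and -0.10 over untreated. Abhd5, the coactivator of adipose triglyceride lipase, was the 1 gene of the 5 past 2-fold against sham, at -1.20 (-1.39 to -1.02) beside 6.81% of all genes at least 2-fold lower. It had 0.50 (0.29 to 0.71) over untreated and is also named after its values were seen. Pnpla2, that lipase, held 478, 835 and 441 CPM, and Lipe, the hormone-sensitive lipase, 1457, 1305 and 1356. Mgll, the monoacylglycerol lipase, held 582, 863 and 658, and G0s2, an inhibitor of Pnpla2, 252, 210 and 149. G0s2 was thus lowest in the denervated library, at -0.49 over sham and -0.76 over untreated.

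**Figure D5:**
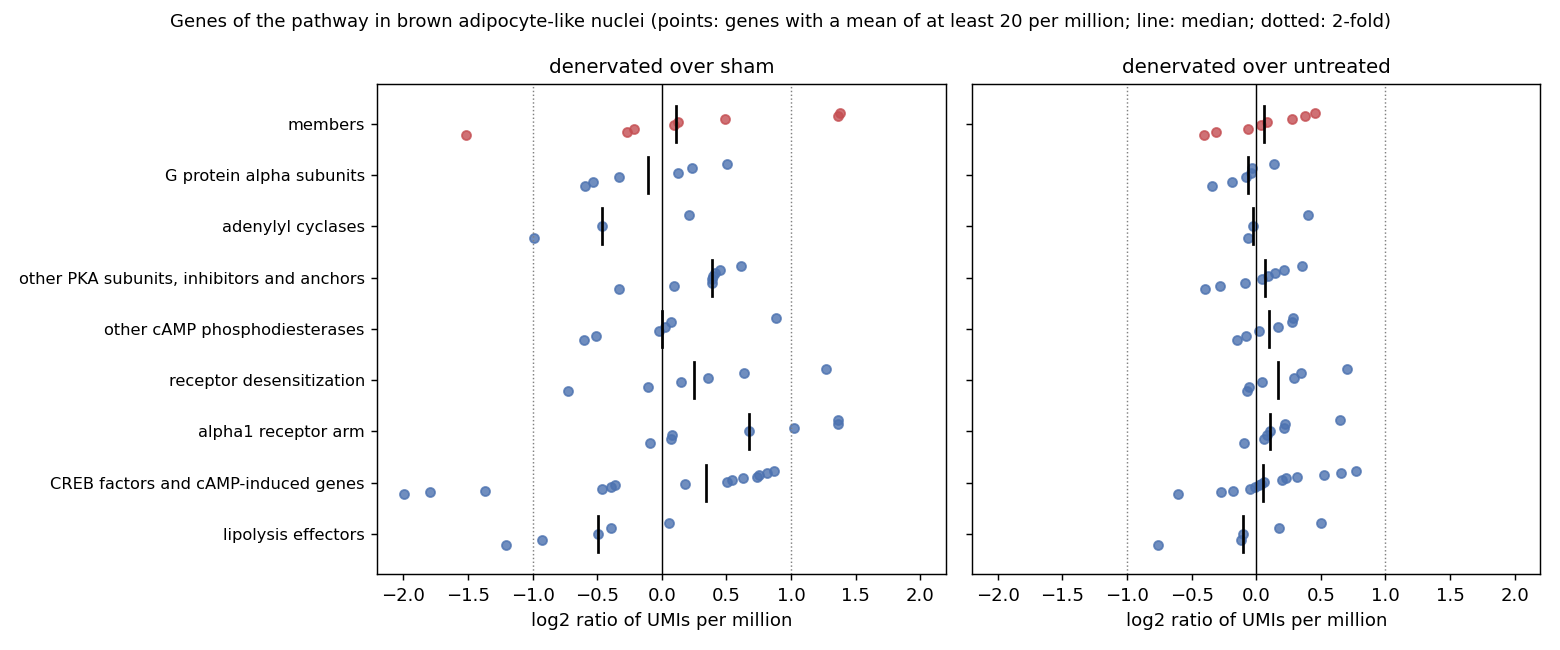
Log2 ratio of CPM in BA-like nuclei, denervated over sham (left) and denervated over untreated (right), 1 point a gene for the 8 of the 9 genes that passed the filter (red) and the genes of the 8 pathway lists with more than 1 passing gene (blue); black lines are list medians and dotted lines mark 2-fold. Points reach past 2-fold on the left only, where the alpha1 receptor arm has the highest list median, 0.68.

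For each of the 9 genes the 3 genes with the most similar pattern were sought over 20 sums of a class in a library with at least 50 nuclei, by Pearson's r of log2(CPM + 5) among 8425 genes. Adrb3 was most like Ankef1 (0.97), Csad (0.96) and Acvr1c (0.96), and Prkar2b most like Rgs7 (0.97), Lpin1 (0.96) and Mpc1 (0.96). The 3 genes most like Adra1a included Slc36a2 (0.91) and Ppara (0.90), and Pde3b was most like Sgcd, Tenm4 and Por, at 0.92 to 0.94. Adra1b, at a mean of 5.37 CPM, was most like Nrip2, Pcp4l1 and Lmod1, of which Lmod1 is a smooth muscle marker. Prkaca was most like Fam210a, Timm9 and Gm44386, at 0.88 to 0.90, and Pde3a most like Serpine2, Emsy and Begain, at 0.89. The lowest values belonged to Adrb1, with Klhdc2, Ppp1r3d and Ppm1a at 0.82 to 0.87, and Pde4d, with Prune2, Sil1 and Efl1 at 0.83 to 0.91. The 20 sums share 3 libraries and their depth, so these values describe likeness and were not tested.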

How the data were processed

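Nuclei of interscapular BAT were measured by single-nucleus RNA sequencing in 3 libraries, 1 for each condition, grouped by their labels. The authors deposited raw UMI counts per barcode and gene, without normalization. Per the file headers of the untreated and the denervated table, the BD Rhapsody pipeline 1.9-nuclei was run on GRCm38 with GENCODE vM19. The sham table has no header, so its pipeline is not given in the sources used here. The submitters' processing notes name Seurat 4.0.6. The tables held 14971579 untreated, 14725864 sham and 9420030 denervated UMIs over 13707, 15368 and 15822 barcodes. The removal of debris and ambient RNA that the study describes was not repeated.

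Barcodes under 200 detected genes or over 50% mitochondrial UMIs were dropped. A barcode was taken as a doublet, and removed, where 2 marker lists that exclude each other both had 3 or more UMIs and the smaller sum reached 25% of the larger (1082, 1890 and 680 barcodes). Clusters were made within each library from 2000 variable genes, 30 components and 20 neighbours at resolution 0.5 (Louvain, igraph 0.11.9). Unnamed, pericyte and smooth muscle clusters of at least 200 nuclei were clustered again in the same way. The smaller BA-like cluster, the WA-like nuclei and the unnamed adipocyte cluster of the sham library came from this second round, out of 1 unnamed cluster of 1933 nuclei. In the other libraries the smaller BA-like and the WA-like clusters came from the first round. The 9 genes, all pathway genes and mitochondrial genes were left out. A cluster was named where at least 3 markers of a list were at least 2-fold higher in it the list's score led the next by 0.5 log2, and its leading genes were not red blood cell genes or mostly markers of another class. This rule was set after the clusters were seen, and a difference from the study's cell types may come from the way names were assigned here. For each class in a library, UMIs were added up and scaled to 1000000 (CPM). Intervals are exact Poisson for levels, Clopper-Pearson for shares and conditional binomial for ratios. UMIs of 1 library share its preparation, so these intervals cover counting error only. Positions are from GENCODE vM21 on GRCm38. All 9 genes are annotated as protein-coding, and a UMI was assigned to the whole gene, so exons, introns and isoforms cannot be told apart.

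The 9 genes and all lists were chosen with earlier results of these data known. Named genes are the 9, up to 4 genes of each pathway list in order of UMIs in BA-like nuclei, those past 2-fold in 1 direction against both other libraries, the 3 genes most like each of the 9, and genes leading a cluster. Some genes that this rule takes are not reported here, though they stay in the counts. The scripts were tested on simulated data. Python 3.11.15 with numpy 2.4.6, scipy 1.17.1, pandas 2.3.3 and scikit-learn 1.9.0 was used. Other filters, doublet handling, clustering, scaling, ambient subtraction and thinning depths were tried.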

Additional observations from a re-analysis of the deposited data

Results flagged for a closer look

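For 17 log2 ratios between libraries, a WA-like, EC-like, PC-like or immune-like class lay on the other side of 0 from BA-like nuclei with both intervals clear of 0. With 1 library a condition, the difference between classes was not tested. How many of all genes meet the same rule was not counted, so 17 cannot be read as more than other genes would show. For denervated over sham, Adrb3 was at 1.74 in EC-like and 0.95 in PC-like nuclei against -1.52 in BA-like nuclei. Adra1a was at 3.47 in EC-like and 3.18 in PC-like nuclei against -0.27, and Prkaca at 0.98 and 0.93 against -0.21. Without the 2 small PC-like clusters in which BA markers scored second, the PC-like values were 0.80 (-0.10 to 1.65), 2.84 and 0.88. These 6 values came from the denervated EC-like and PC-like nuclei in which the BA markers summed to 5308 and 5600 CPM, against 1366 and 2823 in the sham library, and the part of that RNA in the values was not tested. Adrb1 went the other way in PC-like nuclei, at -0.85 from 20 against 109 UMIs, where BA-like nuclei had 1.38. In immune-like nuclei Adra1a was at 2.47 (0.44 to 5.60), from 22 against 2 UMIs.

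For denervated over untreated, Adrb1 was at 1.53 and Pde3a at 2.0002 in EC-like nuclei, from 31 against 28 and 26 against 17 UMIs, where BA-like nuclei had -0.40 and -0.31. The BA markers in EC-like nuclei summed to 5308 CPM denervated and 1681 untreated, and the part of that RNA in these values was not tested. Adrb3 was at -0.67 in WA-like nuclei against 0.08 in BA-like nuclei, and the BA markers in those WA-like nuclei summed to 8769 CPM denervated and 14419 untreated.

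For sham over untreated, Adra1a was at -1.06 in WA-like nuclei, from 12 against 38 UMIs, and -0.66 in EC-like nuclei, where BA-like nuclei had 0.54. Prkaca was at -0.70 in EC-like and -0.61 in PC-like nuclei against 0.15. Pde3b was at -0.54 in WA-like nuclei against 0.28, and Pde3a at 1.54 in EC-like nuclei, from 47 against 17 UMIs, against -0.44. Both WA-like values rested on 87 sham nuclei. The unnamed sham cluster of 832 nuclei held 207 CPM of Adra1a and 959 of Pde3b. Untreated WA-like nuclei held 195 and 1006, so neither WA-like difference was settled.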

How the results depend on the processing

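Of 90 log2 ratios for denervated over sham in BA-like nuclei under other settings, 89 kept their direction, as did 86 of 90 for denervated over untreated and 89 of 90 for sham over untreated. The main counting interval held 79, 81 and 82 of them. For BA-like over EC-like nuclei 145 of 146 kept their direction, but the interval held only 95. For BA-like over PC-like nuclei 138 of 142 kept it, and the interval held 106. Pde3b for denervated over sham was 0.014 with at least 500 detected genes and turned to -0.047 in the largest BA-like clusters alone. Pde4d was 1.27 with at least 500 detected genes, 1.30 without mitochondrial UMIs in the totals, 1.30 after subtraction of ambient RNA and 1.24 in the largest clusters. Leaving out mitochondrial UMIs gave -1.59 for Adrb3 and 0.42 for Prkar2b, and subtracting ambient RNA gave -1.59 and 0.42. With the WA-like and unnamed adipocyte nuclei added to the BA-like nuclei, an alternative chosen after seeing the data, Adrb3 was -1.61 for denervated over sham and Prkaca turned to -0.0028 for sham over untreated. The cause was not tested. With the libraries clustered together, Adra1b for BA-like over PC-like nuclei of the sham library turned to 0.39. Without the filter on low values, 5950 of 22392 genes were at least 2-fold higher and 3248 lower for denervated over sham. With the filter these were 7.07% and 6.81% of 7296 genes, so the share rose as well as the number. Genes with UMIs in only 1 of the 2 libraries counted as past 2-fold there. The ambient share reached its upper limit in denervated EC-like and in sham and denervated PC-like nuclei, so no subtracted value is given there. Thinning to 300 or 800 UMIs moved 50 of 54 shares, which depend on depth by construction. No paired analysis was possible because each group had 1 library, and for the same reason no replicate could be left out. Depth limits Adra1b in all classes and Adrb1 and Pde3a in WA-like nuclei.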

Other observations

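The smaller classes held few UMIs of the 9 genes. Adrb3 stood at 422 CPM in the 52 fibroblast-like and 339 in the 136 Schwann-like nuclei of the sham library, from 17 and 30 UMIs, against 70.1 and 40.5 in the untreated library from 2 and 1 UMIs. The 17 fibroblast-like UMIs came from 4 nuclei. In the denervated library fibroblast-like nuclei held 181 CPM from 9 UMIs, and the 49 Schwann-like nuclei held 0 UMIs. In the 261 immune-like nuclei of the denervated library Adrb3 and Adra1a each stood at 143 CPM, beside BA markers that summed to 4290 CPM. Prkar2b was at 362 CPM in untreated and 358 in denervated immune-like nuclei, and at 51.7 CPM from 4 UMIs in sham ones. The part of adipocyte RNA in these values was not tested.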
